A study of Mus musculus with 31 samples.

Results

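The genes described here are 10 inhibitors of Wnt signalling, chosen by name: Dkk1, Dkk3, Wif1, Sfrp1, Sfrp2, Frzb, Nkd1, Nkd2, Apcdd1 and Kremen1. All 10 were found among the 34865 genes of a bulk RNA-seq table and among the 55487 genes of a Smart-seq2 table, both from mouse embryonic brain. The bulk table holds 3 libraries of dorsal and 3 of ventral diencephalon from wild-type embryos at E10.5. The Smart-seq2 table, made with a full-length method for very small inputs, holds 13 libraries labelled Emx1-cre(+/-)::MDMD::Axin2(-/-) and 12 labelled Emx1-cre(+/-)::MDMD::Axin2(+/+), all from E11.5 medial cortex. They are called null and wild type below. Both genotypes came from Emx1-CreERT2::MADM-11::Axin2LacZ/+ mice, so cells of both carry the Emx1-driven Cre and the MADM-11 cassettes. MADM (mosaic analysis with double markers) marks sister cells in different colours, and only cells in which Emx1 is active are open to it. By its title, the study is about how Axin2 mediates the competition of stem cells in this tissue.

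Wnt proteins signal by binding a Frizzled receptor together with Lrp5 or Lrp6, which engages Dishevelled and stabilises beta-catenin. Inhibitors act at each step of this route. Wif1 and the Sfrp family, to which Frzb belongs, bind Wnt proteins outside the cell, and the Sfrp proteins do so with a cysteine-rich domain like that of Frizzled. Dkk1 binds Lrp5 and Lrp6 and is needed for formation of the head, Kremen1 is a receptor for Dkk1, and Apcdd1 is a membrane protein that acts at the receptors. Nkd1 and Nkd2 bind Dishevelled inside the cell. Nkd1, Apcdd1 and Dkk1, like Axin2, are themselves switched on by Wnt signalling in many tissues and so report on it as well as dampen it.

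Promoter sequences are shown for the Nkd pair, whose members lay on opposite sides in the bulk comparison, and for Dkk1, which was called in the other direction from Nkd1. Windows from the RefSeq promoter table (GRCm38.p6) were used for 6 of the 10 genes: Dkk1, Wif1, Sfrp2, Frzb, Nkd1 and Nkd2. Dkk3, Sfrp1 and Kremen1 had no window there. Apcdd1 was left out by name and is not counted among the 6. A separate listing of matches, from which Apcdd1 was not left out, held those of Dkk1 alone. Each window runs over the 250 bases before the start annotated in RefSeq, 5′ to 3′ on the gene's strand. It was searched on both strands for CTTTGAT and for CTTTGTT, as well as for CTTTGAA and for CTTTGTA, letters that Tcf/Lef factors can bind. Capitals mark matches.
Nkd1, chr8:88527383-88527632, plus strand: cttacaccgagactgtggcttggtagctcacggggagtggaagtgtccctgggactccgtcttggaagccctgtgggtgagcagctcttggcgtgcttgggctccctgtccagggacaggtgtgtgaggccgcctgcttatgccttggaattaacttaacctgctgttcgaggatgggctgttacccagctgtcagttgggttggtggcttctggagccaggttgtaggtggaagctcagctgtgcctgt
Nkd2, chr13:73847632-73847881, minus strand: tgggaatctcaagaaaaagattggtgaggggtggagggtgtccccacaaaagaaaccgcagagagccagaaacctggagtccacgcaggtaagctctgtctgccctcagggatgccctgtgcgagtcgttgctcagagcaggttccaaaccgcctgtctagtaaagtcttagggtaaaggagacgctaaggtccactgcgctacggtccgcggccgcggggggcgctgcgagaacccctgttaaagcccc
Dkk1, chr19:30549586-30549615, minus strand, bases 119 to 90 before the start: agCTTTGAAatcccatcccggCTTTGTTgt

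The Dkk1 window held 2 matches, CTTTGAA at bases 117 to 111 and CTTTGTT at bases 98 to 92 before the start. GENCODE M21 begins Dkk1 further upstream and places this stretch in its first exon. The Nkd1 window precedes a RefSeq start that lies inside the GENCODE gene, whose own start at 88521354 is further upstream, so the bases before that start were not searched. The Frzb window (chr2:80447397-80447646, minus strand) lies mostly inside the GENCODE gene, which begins at 80447625. The Wif1 window (chr10:121033754-121034003, plus strand) runs past the GENCODE start at 121033960. Of the 6 windows 1 held a match (16.7%), against 4874 of 32851 windows in the whole table (14.8%). The Axin2 window, searched in the same way, held 0 matches. No match means only that these letters are not in the window.

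The bulk libraries held between 17604166 and 20838002 counts, and within each region libraries 1 and 2 were the closest pair, with a correlation of log2(CPM + 1) of 0.995 in dorsal and 0.987 in ventral. The third library stood apart in both regions, at 0.962 and 0.959 with the other dorsal libraries and at 0.925 and 0.914 with the other ventral ones. Whether these libraries stem from different embryos is not in the labels, so the spread behind each p-value is that of the libraries alone and may be technical. The marker lists were chosen with earlier results of these data known, so they are no independent check of the labels. All 10 dorsal diencephalon markers were higher in dorsal and all 10 hypothalamic markers higher in ventral libraries. Dorsal libraries also carried telencephalic markers (10 of 10 higher in dorsal, summed level 2576 to 2860 CPM against 88.4 to 110 CPM). Cortical hem markers summed to 128 to 137 CPM in dorsal and 9.98 to 13.4 CPM in ventral libraries (5 of 7 tested higher in dorsal, 0 in ventral). Neural progenitor markers summed to 750 to 1060 CPM and 616 to 699 CPM (4 of 10 higher in dorsal, 1 in ventral). Ventral libraries carried small-intestine markers (10 of 10 higher in ventral, 1878 to 6862 CPM against 8.24 to 9.82 CPM), exocrine pancreas markers (10 of 10, 755 to 3496 CPM against 3.15 to 4.88 CPM) and surface epithelial markers (5 of 6 tested, 98.1 to 299.7 CPM against 20.9 to 23.4 CPM). Mesenchymal markers, of a cell type in which several Wnt inhibitors are active, summed to 29.2 to 31.6 CPM in dorsal and 37.2 to 59.3 CPM in ventral libraries, with 1 of 8 tested higher in ventral. In bulk tissue, fewer cells of a type and less RNA per cell cannot be told apart.

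The comparison of dorsal with ventral diencephalon asks how the supply of Wnt inhibitors differs between these regions. Sfrp1 and Nkd1 were higher in dorsal diencephalon by more than 4-fold and Dkk1 was higher in ventral diencephalon by more than 5-fold, while the other 7 genes did not pass the threshold (adjusted p under 0.05, edgeR quasi-likelihood test over 14701 genes). The share of all genes tested that was higher in dorsal was 7.14%, against 2 of 10 here, and the share higher in ventral was 9.54%, against 1 of 10. The median log2 fold change of the 10 genes was 0.79, beside 0.01 for all genes tested. The regions did not overlap for 6 of the 10, against 39.0% of all genes: every dorsal library was the higher for Sfrp1, Nkd1 and Wif1 (19.0% of all genes), and every ventral library for Dkk1, Dkk3 and Nkd2 (20.0%). These counts moved with the libraries used: without ventral library 3 there were 5 dorsal and 2 ventral calls, while the calls over all genes went from 1050 dorsal and 1403 ventral to 1695 and 1928, and when dorsal library 1, dorsal library 2, ventral library 1 or ventral library 2 was left out, 0 of the 10 were called in ventral. With only the closest pair of libraries in each region, which leaves out library 3 of both and was added once the data had been seen, 6 were higher in dorsal and 3 in ventral, with 3843 and 4117 calls over all genes.

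**Figure D1:**
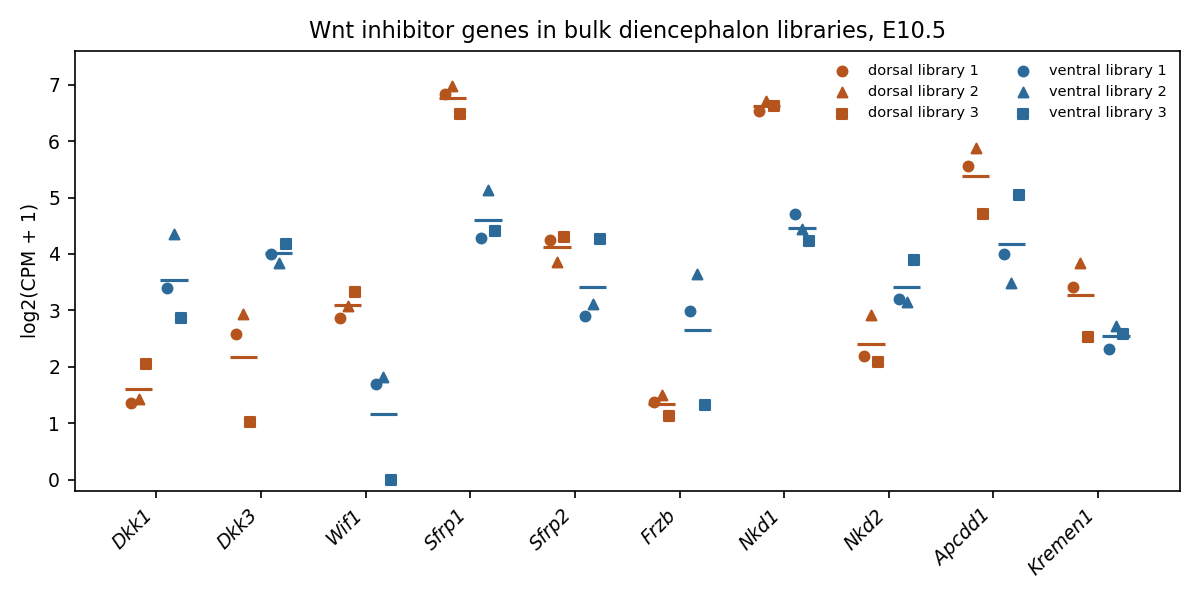
Level of the 10 Wnt inhibitor genes in each bulk library as log2(CPM + 1), where CPM is the count relative to the TMM-scaled library size. Orange marks dorsal and blue ventral libraries, symbols mark library numbers and bars mark the mean of 3 libraries. Sfrp1 and Nkd1 are the highest genes in dorsal, and Wif1 is at 0 in ventral library 3.

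Among the genes that bind Wnt proteins outside the cell, Sfrp1 was the one called. Sfrp1 (chromosome 8, 23411502 to 23449632, plus strand) stood at 112, 124 and 88.5 CPM in dorsal libraries 1, 2 and 3 and at 18.5, 34.2 and 20.2 CPM in the ventral ones. The lowest dorsal library was above the highest ventral one. The means were 108 ± 18.3 CPM and 24.3 ± 8.61 CPM (SD, n = 3 each), which gave a log2 fold change of 2.16 (standard error 0.28, adjusted p = 0.00186). Sfrp1 kept its call in all 13 alternatives run, with log2 fold changes from 1.99 to 2.48.

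Sfrp2, a close relative of Sfrp1, did not pass the threshold. It stood at 17.9, 13.5 and 18.7 CPM in dorsal and 6.48, 7.64 and 18.1 CPM in ventral libraries. Ventral library 3 lay within the dorsal range while the other ventral libraries lay below it. The log2 fold change was 0.63 (95% interval -0.35 to 1.62, adjusted p = 0.362), and without ventral library 3 it was 1.21 and passed (adjusted p = 0.0145).

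Frzb, the third Sfrp family member here, stood at 1.60, 1.83 and 1.19 CPM in dorsal and 6.92, 11.54 and 1.51 CPM in ventral libraries. Ventral library 3 again fell among the dorsal values, and the other ventral libraries were higher than every dorsal one. Its log2 fold change was -2.11 (95% interval -3.80 to -0.41, adjusted p = 0.0932). Without ventral library 3 it was -2.61 and passed (adjusted p = 0.00346), and it also passed with DESeq2 (adjusted p = 0.0272).

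Wif1, which binds Wnt proteins through a domain of its own, stood at 6.31, 7.46 and 8.97 CPM in dorsal and 2.22, 2.55 and 0 CPM in ventral libraries. Ventral library 3 had no Wif1 count, which allows up to 0.167 CPM at its depth, where the others had 45 and 47 counts. The 2 regions did not overlap, and the log2 fold change of 2.24 had a 95% interval of -0.26 to 4.75 (adjusted p = 0.207). Without ventral library 3 the value was 1.64 and passed (adjusted p = 0.0136), and it passed by limma (1.92, adjusted p = 0.0303).

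At the receptors, Dkk1 was called and its receptor Kremen1 was not. Dkk1 (chromosome 19, 30545863 to 30549665, minus strand) stood at 1.55, 1.68 and 3.12 CPM in dorsal and 9.59, 19.4 and 6.30 CPM in ventral libraries, from 33 to 55 and from 113 to 358 counts. Every ventral library was above every dorsal one, with a 3-fold range among the ventral libraries themselves. This gave a log2 fold change of -2.47 (standard error 0.55, adjusted p = 0.0193). The call was lost without dorsal library 1 (-2.30, adjusted p = 0.0876), dorsal library 2 (-2.34, adjusted p = 0.0811), ventral library 1 (-2.60, adjusted p = 0.0504) and ventral library 2 (-1.91, adjusted p = 0.0863).

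Among the ventral libraries, Dkk1, Frzb and Wif1 were highest in library 2 and lowest in library 3, although for Wif1 the ventral libraries lay below the dorsal ones. The other members had other orders. Sfrp2, Dkk3, Nkd2 and Apcdd1 were highest in ventral library 3 and Nkd1 in library 1. Sfrp1 and Kremen1 were highest in library 2 but lowest in library 1. The share of all genes with each order was not counted. Small-intestine markers summed to 6862 CPM in ventral library 2, 3872 CPM in library 1 and 1878 CPM in library 3, and surface epithelial markers to 299.7, 174 and 98.1 CPM in the same order. The part of these transcripts in the values of Dkk1, Frzb and Wif1 was not tested.

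Dkk3, a divergent member of the Dickkopf family that is not a typical Lrp antagonist, stood at 4.99, 6.69 and 1.02 CPM in dorsal and 15.03, 13.4 and 17.1 CPM in ventral libraries. The ventral libraries were close together and above all dorsal ones, and dorsal library 3 was far below the others. Its log2 fold change of -1.84 (95% interval -3.23 to -0.44) did not pass (adjusted p = 0.0792). It did pass without dorsal library 3 (-1.37, adjusted p = 0.0283), with DESeq2 (adjusted p = 0.0144), by limma (adjusted p = 0.0312) and with no filter on low counts (adjusted p = 0.0403).

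Kremen1 stood at 9.70, 13.4 and 4.77 CPM in dorsal and 3.95, 5.58 and 5.02 CPM in ventral libraries. Dorsal library 3 fell within the ventral range. The log2 fold change was 0.94 (95% interval -0.11 to 1.99, adjusted p = 0.209).

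Apcdd1, the membrane inhibitor, did not pass the threshold. It stood at 46.4, 57.9 and 25.04 CPM in dorsal and 14.98, 10.1 and 32.1 CPM in ventral libraries. The third libraries crossed, ventral library 3 being above dorsal library 3. The log2 fold change was 1.18 (95% interval 0.09 to 2.26, adjusted p = 0.134), and without ventral library 3 it was 1.74 and passed (adjusted p = 0.0166).

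Inside the cell, the Nkd genes stood on opposite sides. Nkd1 (chromosome 8, 88521354 to 88594884, plus strand) stood at 92.1, 104 and 97.9 CPM in dorsal and 25.1, 20.81 and 17.7 CPM in ventral libraries. The libraries of each region were close together and the regions far apart. The means were 98.0 ± 5.97 CPM and 21.2 ± 3.68 CPM (SD, n = 3 each), and the log2 fold change was 2.21 (standard error 0.19, adjusted p = 0.000312, the smallest of the 10). Nkd1 kept its call in all 13 alternatives, between 2.06 and 2.34.

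Nkd2 stood at 3.58, 6.55 and 3.24 CPM in dorsal and 8.21, 7.86 and 13.9 CPM in ventral libraries. All ventral libraries were above all dorsal ones, by a small margin between dorsal library 2 and ventral library 2. Its log2 fold change of -1.16 (95% interval -2.19 to -0.14) did not pass (adjusted p = 0.119) and passed in 0 of 13 alternatives. The 95% intervals of Nkd1 (1.76 to 2.66) and Nkd2 lay on different sides of 0, and the difference between the genes was not tested.

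**Figure D2:**
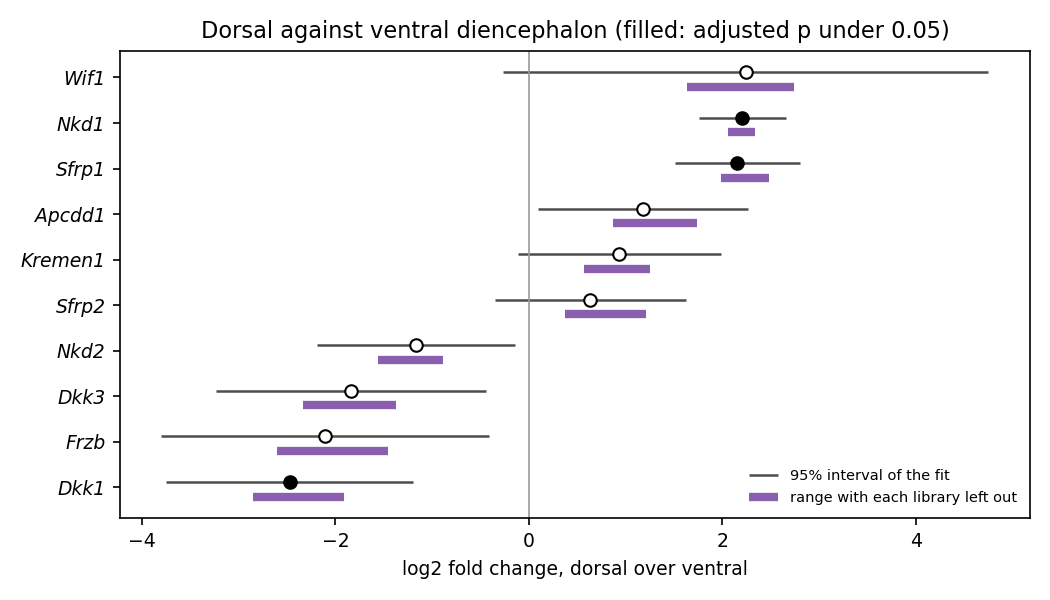
Log2 fold change of each Wnt inhibitor gene, dorsal over ventral. Circles are the fitted values, filled where the adjusted p was under 0.05, thin lines are 95% intervals of the fit and thick bars the range over the 6 fits that each leave out 1 library. All thick bars stay on 1 side of 0, and Wif1 has the widest interval.

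Expressed per kilobase of exonic length, so that genes can be set against each other, the 2 regions differed in how evenly the inhibitors were spread. In dorsal libraries Sfrp1 (24.8 ± 4.18 CPM per kilobase) and Nkd1 (21.5 ± 1.31) led and overlapped each other, followed without overlap by Sfrp2 (7.75 ± 1.30) and then by Apcdd1 (3.34 ± 1.29) and Wif1 (3.12 ± 0.550), which overlapped. Dkk3, Kremen1, Nkd2 and Dkk1 overlapped in turn between 1.26 and 0.874, and Frzb was lowest at 0.476 ± 0.0997. In ventral libraries the first 5 genes, Sfrp1 (5.56 ± 1.97), Sfrp2 (4.99 ± 2.98), Dkk1 (4.85 ± 2.81), Nkd1 (4.65 ± 0.807) and Dkk3 (4.52 ± 0.557), all overlapped their neighbours. The other 5, from Nkd2 (2.07 ± 0.708) down to Kremen1 (0.628 ± 0.107), also overlapped in turn.

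Sfrp1 and Nkd1 together made up 70.6%, 71.8% and 70.4% of the summed per-length level of the 10 genes in dorsal libraries 1, 2 and 3. In ventral libraries they made up 35.3%, 34.7% and 27.4%. Dorsal libraries were thus dominated by a pair of genes, and the summed level was 59.3 to 71.4 CPM per kilobase there against 27.6 to 35.7 in ventral libraries. These shares follow from the same counts as the folds above and carry no test.

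Axin2, the feedback inhibitor that the study is about, was 4.22-fold higher in dorsal libraries, at 12.1, 8.57 and 18.9 CPM against 2.72, 2.22 and 4.40 CPM (log2 fold change 2.08, standard error 0.45, adjusted p = 0.0175). The call was lost without dorsal library 1 (2.13, adjusted p = 0.0635), ventral library 1 (1.99, adjusted p = 0.0765) and ventral library 2 (1.88, adjusted p = 0.0661). Its fold with all libraries was close in size to those of Sfrp1 and Nkd1. Among 18 further secreted or surface inhibitors, 8 reached the minimum for testing, 4 were higher in dorsal and 0 in ventral, with a median log2 fold change of 1.002. Shisa2, which holds Frizzled and FGF receptors back inside the cell, averaged 82.7 ± 19.2 CPM (SD, n = 3) dorsally and 14.8 ± 4.32 CPM ventrally (adjusted p = 0.00129), and the secreted guidance protein Draxin at 63.7 and 15.7 CPM (adjusted p = 0.00519). Of 17 intracellular inhibitors, a list that includes Axin2, all were tested. Of these, 3 were higher in dorsal: Axin2 again, the corepressor Tle1 (log2 fold change 1.35) and the Apc-binding Amer2 (0.97). In ventral 1 was higher, the corepressor Tle2 (-1.44).

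Genes for the ligands and receptors on which the inhibitors act were called mostly in dorsal. Of 7 tested Wnt ligands 2 were higher in dorsal and 0 in ventral: Wnt7b at 278 against 29.3 CPM (log2 fold change 3.24, adjusted p = 8.81e-05) and Wnt5a at 21.2 against 5.59 CPM (1.92, adjusted p = 0.0296). Of 17 tested receptor and Dishevelled genes 6 were higher in dorsal, with Fzd1 at 84.3 against 13.7 CPM and Fzd10 at 5.67 against 0.0526 CPM, and 1 in ventral, Fzd5 at 0.293 against 13.4 CPM. Fzd10 and Fzd5 reached the minimum for testing only through the region where they were high. Of 10 tested target genes 3 were higher in dorsal, among them Tnfrsf19 (log2 fold change 2.79) and Emx2 (2.66), and 0 in ventral. The 5 lists, chosen with earlier results of these data known, together had 18 calls in dorsal, Axin2 among them, and 2 in ventral. These lists held 8 secreted or surface inhibitors, 17 intracellular inhibitors, 7 ligands, 17 receptor and Dishevelled genes and 10 target genes that were tested. Of all genes tested, 7.14% were called in dorsal and 9.54% in ventral. Leaving out dorsal library 1 gave 11 dorsal calls (498 over all genes), leaving out ventral library 1 gave 10 (530), and leaving out ventral library 3 gave 28 (1695). When genes needed at least 0.5 CPM in each region, the lists had 16 dorsal calls and 1 ventral call. Over all genes there were then 803 and 821. Emx2 is also a telencephalic marker of the list given above. The part of telencephalic tissue, cortical hem and progenitor cells in the dorsal values of the pathway genes and of Sfrp1 and Nkd1 was not tested.

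**Figure D3:**
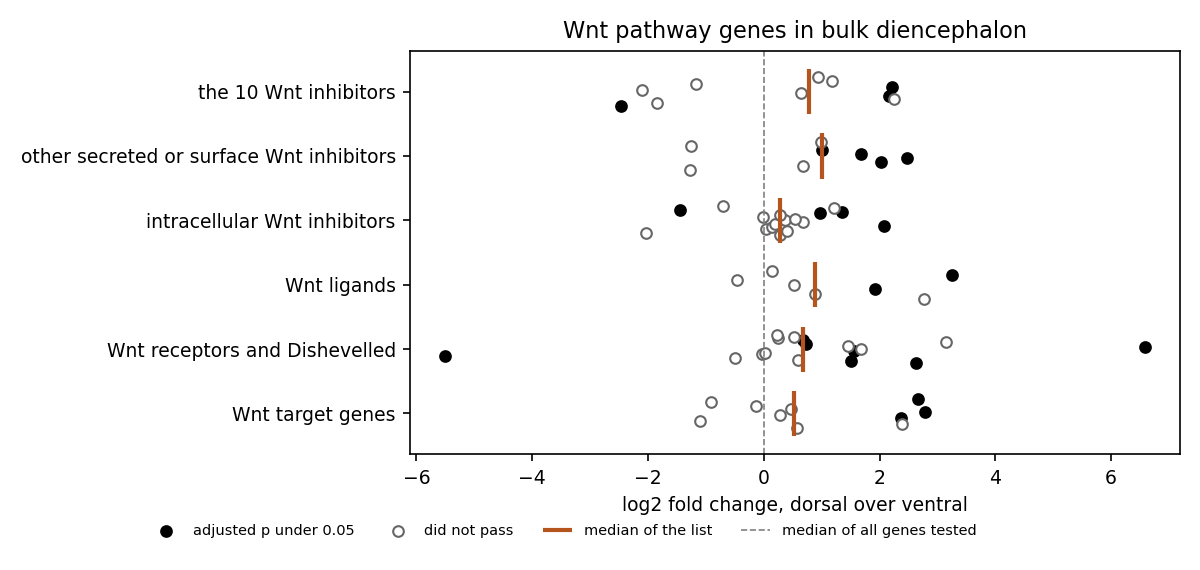
Log2 fold change, dorsal over ventral, of the 10 Wnt inhibitor genes and of the tested genes of 5 Wnt pathway lists. Each circle is a gene, filled where the adjusted p was under 0.05, the orange bar is the list's median and the dashed line the median of all genes tested (0.01). The list medians lie between 0.29 and 1.002.

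In E11.5 medial cortex the question is whether inhibitor levels differ between cells with and without Axin2. Each sample is labelled a cell and no animal is named, so each genotype counts as 1 sample and no test was made. Axin2 itself had a median of 3.28 TPM (lowest 0, highest 22.4) in null and 13.2 TPM (lowest 4.32, highest 35.9) in wild-type libraries. In 8 of 13 null libraries Axin2 was below the lowest wild-type value, but 3 lay above the wild-type median, at 14.2, 16.9 and 22.4 TPM, so the level of Axin2 does not separate the libraries by label. The number of genes at 1 TPM or more was 7863 to 11852 in null and 8693 to 12209 in wild-type libraries. Every cortical and progenitor marker of the lists was present in at least 1 library, and the 10 ventral diencephalon markers summed to at most 7.96 TPM in null and 8.50 TPM in wild-type libraries. Of these, Nkx2-1, Nkx2-2, Otp, Nr5a1 and Shh were at 0 in all 25, and Six3 was at 1 TPM or more in 8, Rax in 5, Fezf1 in 3, Sim1 in 1 and Six6 in 0. Dorsal diencephalon markers summed to 4.55 to 127 TPM in null and 39.8 to 130 TPM in wild-type libraries. Tcf7l2 was at 1 TPM or more in 25 libraries, Lhx9 in 24 and Foxp2 in 20. Gata2 was so in 3, Olig3, Irx3 and Tal1 in 2 each, Gbx2 and Barhl2 in 1 each and Irx1 in 0. Cortical hem markers summed to 107 to 1192 TPM in null and 120 to 1168 TPM in wild-type libraries, and neuron markers to 80.9 to 1587 and 337 to 1491 TPM. Blood markers, mostly embryonic globins such as Hbb-y, summed to 575 to 19286 TPM in null and 265 to 15311 TPM in wild-type libraries, and mesenchymal markers to 22.5 to 208 and 50.6 to 267 TPM. The part of RNA from these cell types in the inhibitor values was not tested.

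None of the 10 genes differed between genotypes by more than 1 in mean log2(TPM + 1), in either direction. Of the 13680 genes that averaged 1 TPM or more, 9.52% differed by more than that, 1.39% higher and 8.14% lower in null, and the median gene was 0.22 lower in null. The median difference of the 9 inhibitors past that minimum was -0.16. For each of the 10 genes the ranges of the 2 genotypes overlapped.

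**Figure D4:**
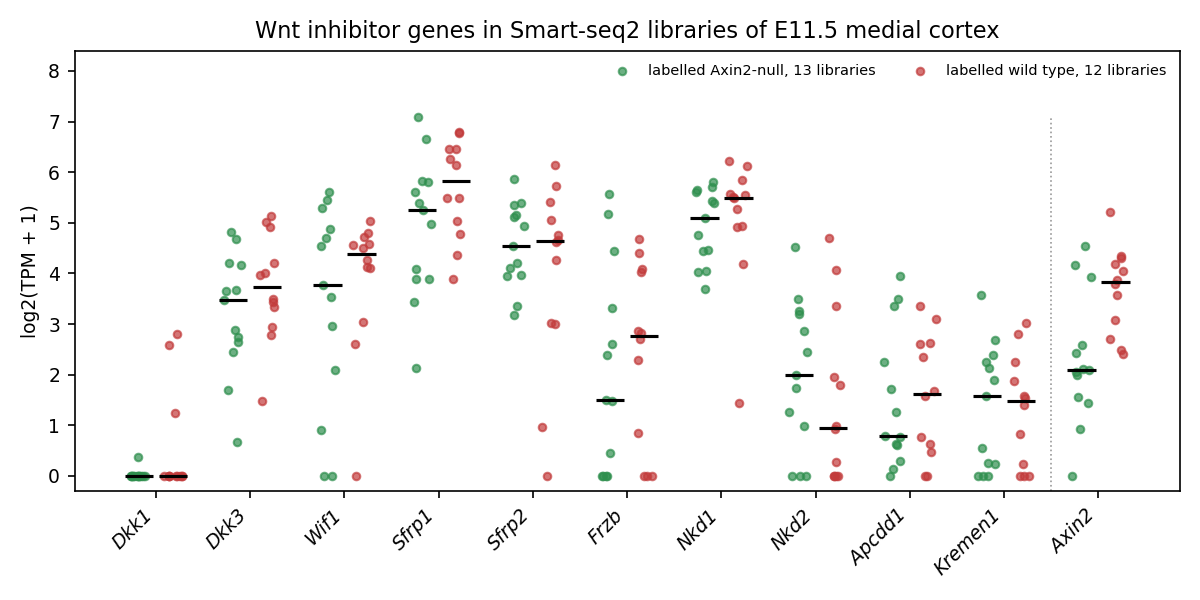
Level of the 10 Wnt inhibitor genes and Axin2 in each Smart-seq2 library as log2(TPM + 1), null libraries in green and wild-type libraries in red. Points are libraries and bars mark medians. The genotypes overlap for all genes shown, and Axin2 has the largest gap between medians.

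The same genes led in cortex as in dorsal diencephalon. Sfrp1 was found at 1 TPM or more in all 25 libraries, with a median of 37.1 TPM (3.38 to 135) in null and 56.9 TPM (13.9 to 110) in wild type. Null libraries reached both further down and further up. Its difference in mean log2(TPM + 1), null minus wild type, was -0.74, the largest of the 10 and smaller than the SD within either genotype (1.38 and 0.97).

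Nkd1 was likewise found in all 25 libraries, with a median of 33.4 TPM (11.9 to 55.0) in null and 44.2 TPM (1.73 to 73.7) in wild type. Its difference of -0.16 was close to that of the median gene. Sfrp1 and Nkd1 together held a median of 52.9% of the summed TPM of the 10 genes in null (25.7% to 75.0%) and 58.9% in wild-type libraries (40.0% to 77.5%). The lowest Nkd1 value of all was in a wild-type library.

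Sfrp2 had nearly equal medians, 22.2 TPM (8.07 to 57.4) in null and 23.9 TPM (0 to 69.3) in wild type. It was found in 13 of 13 null and 10 of 12 wild-type libraries. The difference of 0.58 came with medians that differed the other way by 0.10, and the wild-type libraries at 0 and 0.95 TPM were the lowest of all. An antisense transcript of Sfrp2, Gm26771, shares 347 exonic bases with it, and whether reads were assigned by strand is not given in the sources used here. Gm26771 was found in 2 null and 1 wild-type libraries.

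Wif1 and Dkk3 were of middling level and found in most libraries. Wif1 had a median of 12.6 TPM (0 to 47.7) in null and 20.0 TPM (0 to 31.7) in wild type, and was found in 10 of 13 and 11 of 12 libraries. The null libraries held both the highest Wif1 values and 2 of the 3 zeros. Dkk3 had a median of 10.1 TPM (0.590 to 27.4) in null and 12.5 TPM (1.80 to 34.2) in wild type, found in 12 of 13 and 12 of 12. Their differences were -0.50 and -0.52, both under the SD within genotypes.

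Frzb, Nkd2, Apcdd1 and Kremen1 were each found in 13 to 16 of the 25 libraries, with wide ranges. Frzb was found in 8 of 13 null libraries (61.5%, exact 95% Clopper-Pearson interval 31.6% to 86.1%) and 8 of 12 wild-type libraries (66.7%, 34.9% to 90.1%), with a highest value of 46.5 TPM in a null library. Nkd2 was found in 9 of 13 (69.2%, 38.6% to 90.9%) and 5 of 12 (41.7%, 15.2% to 72.3%), with medians of 2.99 and 0.930 TPM. These intervals describe the libraries of each label and are no test between genotypes.

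Apcdd1 was found in 6 of 13 null and 7 of 12 wild-type libraries, up to 14.5 and 9.21 TPM. Kremen1, which lies on chromosome 11 with Axin2 and the MADM cassettes, was found in 7 of 13 and 7 of 12, up to 10.9 and 7.09 TPM. Its difference of 0.06 was the smallest of the 10. The differences of Frzb, Nkd2 and Apcdd1 were -0.32, 0.48 and -0.11, each smaller than the SD of the gene within either genotype. Intervals on shares cover counting error only, and a value of 0 in TPM can be a failed estimate.

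Dkk1 was the rarest. It was at 1 TPM or more in 0 of 13 null libraries (exact 95% interval 0% to 24.7%) and in 3 of 12 wild-type libraries (25%, 5.49% to 57.2%), where it reached 5.96 TPM. The highest null value was 0.290 TPM. The mean level over all 25 libraries was below 1 TPM. With its receptor Kremen1 it was found together in 3 libraries.

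Correlations among the inhibitors differed between the genotypes for several pairs, a difference that was not tested. Over all 25 libraries the highest Pearson correlation of log2(TPM + 1) among the 45 pairs was 0.487, between Wif1 and Sfrp2 (0.648 within null and 0.615 within wild type). Wif1 and Sfrp1 followed at 0.480, with 0.721 within null and -0.12 within wild type. Wif1 and Nkd1 stood at 0.442, with 0.0402 within null and 0.882 within wild type. By rank, these pairs stood at 0.488, 0.404 and 0.195 in the order given. The only wild-type library with Wif1 at 0 TPM also had the lowest Nkd1 (1.73 TPM) and the highest wild-type Sfrp1 (110 TPM). How far the values within wild type rest on that library was not tested. The lowest Pearson correlation of the 45 pairs was -0.521, between Dkk3 and Apcdd1 (-0.46 and -0.67). These values are descriptions over libraries in which all genes share the depth and input of the library, and they carry no test. The gene with the highest TPM held 1.46% to 31.2% of the total in null and 1.05% to 32.7% in wild-type libraries. The TPM of every other gene is relative to that total, and its part in the correlations was not tested. Each library held between 5 and 10 of the 10 genes at 1 TPM or more, with a median of 7 in both genotypes.

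Among 9584 named genes found in at least 13 libraries, the 2 whose levels over the 25 libraries were most like those of Sfrp2 were Scamp3 (r = 0.836) and Abt1 (0.823), with 0.864 and 0.657 within null and 0.835 and 0.852 within wild type. For Nkd1 they were Trib2 (0.763) and Zcchc8 (0.743), at 0.939 and 0.879 within wild type but 0.279 and 0.318 within null. For Nkd2 they were Numbl (0.783), an adaptor of the Numb family, and Magef1 (0.705). For Sfrp1 they were P4hb (0.726), an enzyme of protein folding, and Lrrn1 (0.721). For Dkk3 they were Glod4 (0.745) and Pacs2 (0.735), and for Wif1 Itm2b (0.734) and Mia2 (0.717). For Kremen1, Frzb and Apcdd1 the closest were Ankrd13a (0.709), Asphd2 (0.673) and Tti2 (0.604). These are the highest values of a search over many genes, given as descriptions with no test. Nkd1 was at 1.73 TPM in 1 wild-type library and at 17.3 TPM or more in the other wild-type libraries. How far its correlations within wild type rest on that library was not tested.

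The Wnt pathway genes of the lists, which include Axin2, were lower in null on balance, as was the median gene. Their median differences ranged from -0.55 (ligands) to -0.23 (intracellular inhibitors), beside -0.22 for all genes. Among those found in at least 50% of libraries, the secreted inhibitor Igfbp4 had a median of 21.0 TPM in null and 87.0 TPM in wild type (difference -1.09). The receptor Ror2 (-1.02), the ligand Wnt5a (-0.91) and the transcription factor Msx2 (-1.28) had the largest differences of their lists. In the other direction Myc (0.42), Ryk (0.20) and Tle1 (0.14) led their lists.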

How the data were processed

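The 10 genes, the pathway lists and the marker lists were chosen with earlier results of these data known. Per the submitters' processing notes, the authors used Trimmomatic, STAR 2.7.0a and featureCounts with GRCm38 (mm10). Which tool served which table is not given in the sources used here. The bulk table, named as TPM, was taken as estimated counts that the authors deposited: its columns sum to 17604166 to 20838002 after rounding, and 46.6% of values above 0 are whole within 0.0001. The Smart-seq2 values are TPM deposited by the authors, each library summing to the same total, so their depth is unknown.

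Bulk counts were rounded, scaled by TMM and tested with edgeR 4.0.16 (quasi-likelihood, R 4.3.3) over all genes that averaged 1 CPM or more, with Benjamini-Hochberg adjustment and a threshold of 0.05. No pair of bulk libraries agreed within sampling noise. Alternatives used DESeq2 1.42.0, limma 3.58.1 on log2(CPM + 1), other filters, a replicate block and left-out libraries. The fit was tested on simulated data. Smart-seq2 values were compared as mean log2(TPM + 1), and a gene was called found at 1 TPM or more. Smart-seq2 columns name the genotype's colour letter but no sample, so each was tied to its group alone.

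Genes named besides the 10 are Axin2, up to 2 genes per direction of each pathway list with the smallest adjusted p in bulk, and the gene per direction with the largest difference in Smart-seq2 among those found in at least 50% of libraries. Gene positions are from GENCODE M21 (GRCm38). Promoters were taken from RefSeq.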

Additional observations from a re-analysis of the deposited data

How the results depend on the processing

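None of the 130 alternative values of the 10 genes in bulk reversed, and 109 kept their side of the threshold. Leaving out 1 library in turn gave log2 fold changes of -2.85 to -1.91 for Dkk1, -2.34 to -1.37 for Dkk3, 1.64 to 2.74 for Wif1, 0.37 to 1.21 for Sfrp2, -2.61 to -1.46 for Frzb, 0.87 to 1.74 for Apcdd1 and 0.57 to 1.26 for Kremen1. Without library 3 of both regions, chosen after seeing the data, these genes also passed: Dkk3 -1.30, Wif1 1.51, Sfrp2 1.14, Frzb -2.44, Apcdd1 2.04 and Kremen1 1.26. DESeq2 called Dkk3 (-1.86) and Frzb (-2.14), limma Dkk3 (-1.83) and Wif1 (1.92), and the fit with no filter Dkk3 (-1.82). The cause of these shifts was not tested. The 10 genes gave 2 calls in dorsal and 1 in ventral. The dorsal count was 2 to 5 over left-out libraries and 6 without library 3 of both regions. The ventral count was 3 with DESeq2, 2 with limma, 2 with no filter, 0 with the block, 0 to 2 over left-out libraries and 3 without library 3 of both regions. The pathway lists gave 18 and 2 calls, with 10 to 28 and 1 to 4 over left-out libraries, 37 and 8 without library 3 of both regions, and 1 in ventral with at least 0.5 CPM in each region. Over all genes, 1050 and 1403 calls became 498 to 1695 and 843 to 1928 over left-out libraries, 3843 and 4117 without library 3 of both regions, and 821 in ventral with at least 0.5 CPM in each region.

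With the replicate number as a block, Dkk1 was -2.39 and did not pass (adjusted p = 0.0686), and no other call among the 10 genes changed. Same-numbered libraries deviated together with correlations of 0.0992, 0.148 and 0.165, and dorsal library 2 correlated best with ventral library 1 (0.187), so not every same-numbered pair passed 0.1 and the numbers were not taken as pairs. No paired analysis was possible because the Smart-seq2 columns carry no sample number, and no test was made there. All 60 alternative Smart-seq2 differences lay within 1 SD, pooled within genotypes, of the value given, but some turned sign: by the ratio of mean TPM, Wif1 was 0.03, Frzb 0.20 and Apcdd1 0.11, by medians Sfrp2 was -0.10, and leaving out 1 library took Apcdd1 to 0.05 and Kremen1 to -0.13. By medians 1 gene was higher (Nkd2, 1.05) and 1 lower (Frzb, -1.27) in null by more than 1, and with a pseudocount of 0.1 1 was lower (Dkk1, -1.14). With no filter, 0.825% and 4.84% of all genes passed that difference. The 3 libraries a region and unknown Smart-seq2 depth limit what low genes such as Dkk1 can show.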
